A study of Mus musculus with 12 samples.

Results

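A group of 7 genes whose proteins shape the growth cone, the motile tip of a growing axon, was followed in the developing mouse cerebellum of Ts1Cje and euploid animals. They were Gap43, Basp1, Marcks, Marcksl1, Stmn1, Stmn2 and Dbn1, a set given by name, and every probe set annotated to 1 of them was taken. A probe set is the group of short probes that reports on 1 transcript on an Affymetrix array. They are 7 of 8252 genes named on the array and had 11 of its 12488 probe sets, each of which was followed separately. In GRCm38.p6, Gap43 lies on chromosome 16, Basp1 on 15, Marcks on 10, Marcksl1 and Stmn1 on 4, Stmn2 on 3 and Dbn1 on 13. Ts1Cje mice carry a segmental trisomy of chromosome 16 and model Down syndrome, and their euploid controls lack it. The labels give no strain, sex or further allele for either genotype. The groups were Ts1Cje cerebellum and euploid cerebellum, each at postnatal days 0 (P0), 15 (P15) and 30 (P30). Each genotype and stage was 1 pool of RNA from 3 cerebella, or 2 for euploid P30, hybridised to 2 arrays (12 arrays in all).

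These proteins work where the membrane meets the cytoskeleton. GAP-43, BASP1, MARCKS and MARCKSL1 sit on the inner face of the plasma membrane, bind calmodulin or the lipid PIP2, are substrates of protein kinase C, and act on cortical actin. Stathmins bind tubulin and favour the disassembly of microtubules, and drebrin, the product of Dbn1, binds along actin filaments in growth cones and later in dendritic spines. As background, axons, dendrites and synapses of the cerebellum are built mainly after birth, when granule cells migrate inwards and Purkinje cells extend their dendrites.

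The RefSeq promoter table (GRCm38.p6) matched 3 of the 7 genes, Basp1, Marcksl1 and Dbn1. The other members had no entry, so only these promoters are shown. These 3 also had the largest falls between P0 and P30 of the 7, and no promoter of a member with a smaller fall can be set beside them. Each line gives 200 bases, from 250 to 51 bases before the listed start, 5′ to 3′ on the strand of the gene, with GC boxes (GGGCGG or its reverse complement CCGCCC) in capitals.
Basp1, chr15:25413815-25414014, minus strand: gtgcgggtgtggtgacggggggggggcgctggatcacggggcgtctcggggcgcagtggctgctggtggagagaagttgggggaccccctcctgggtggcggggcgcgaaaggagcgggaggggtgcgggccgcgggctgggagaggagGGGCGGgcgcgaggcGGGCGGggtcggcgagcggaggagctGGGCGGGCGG
Marcksl1, chr4:129513331-129513530, plus strand: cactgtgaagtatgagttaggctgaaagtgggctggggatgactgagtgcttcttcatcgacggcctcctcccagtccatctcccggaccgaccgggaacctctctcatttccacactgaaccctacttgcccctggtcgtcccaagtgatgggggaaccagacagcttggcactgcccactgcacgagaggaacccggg
Dbn1, chr13:55488127-55488326, minus strand: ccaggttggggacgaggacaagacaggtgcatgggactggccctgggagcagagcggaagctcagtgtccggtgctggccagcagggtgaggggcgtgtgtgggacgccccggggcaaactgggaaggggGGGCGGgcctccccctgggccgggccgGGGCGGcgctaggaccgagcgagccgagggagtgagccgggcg
The Basp1 window held 4 GC boxes, the Dbn1 window 2 and the Marcksl1 window 0, counted on both strands with overlaps, and 24.6% of 32851 windows of the same length held at least 1. The GC content was 79% for Basp1, 59% for Marcksl1 and 74% for Dbn1, against a median of 51.5% over all windows. None of the 3 windows held TATAAA (in 9.14% of all windows), CCAAT (28.4%), CAGCTG (10.3%) or CACGTG (4.34%).

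The deposited values are MAS5 signals on a linear scale, all arrays being scaled to a common level. Precision is limited by having 6 pools. Median signal per array was 30.4 to 36.2. Of the 11 probe sets, 9 had a mean signal above the filter of 20.12 and were tested, covering all 7 genes. A second probe set of Stmn1 (97910_at) gave 0.7 to 5.1 on the 12 arrays, and another of Stmn2 (95668_at) gave 3.0 to 13.5, so both were near background and were not tested. The dim Stmn2 probe set was designed from the same transcript record as 95669_g_at, another Stmn2 probe set. The tissue carried its label: at P30 the summed signal of 5 granule cell markers was 9233 to 9911 in the Ts1Cje pool and 7628 to 8118 in the euploid pool. A pair of pools stood apart. Hoxa5, a homeobox gene of the caudal hindbrain and spinal cord, was at 263.6 and 239.8 in the euploid P0 pool and at 10.4 to 32.3 on the other 10 arrays. Prph, the other marker of further brain regions past the filter, did not set that pool apart, with mean signals of 52.3 in the Ts1Cje P0 pool and 49.3 in the euploid P0 pool. Hoxb3, a marker of that list below the filter, had its highest mean signal in the euploid P0 pool, 26.9 against 10.8 to 15.1 in the other pools. Xist, an RNA made from the inactive X, was at 105.6 and 77.6 in the Ts1Cje P15 pool and at 1.4 to 6.7 on the other 10 arrays. The ratio of 3′ to 5′ signal of the actin controls, a sign of RNA integrity, was highest in the Ts1Cje P30 pool, at 1.55 and 1.67, against 1.37 and 1.24 in the euploid P30 pool. The same ratio of the GAPDH controls was 0.957 and 0.883 in the Ts1Cje P30 pool and 0.941 and 0.889 in the euploid P30 pool. It was highest at P0, at 1.067 and 0.987 in the Ts1Cje pool against 0.841 and 0.862 in the euploid pool.

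The main pattern was a loss of signal with age in both genotypes. All 9 tested probe sets were called lower at P30 than at P0 (limma adjusted p under 0.05), by 1.73-fold to 17.5-fold. Of 7453 tested probe sets, 19.6% were called lower. The set was drawn up with earlier results of these data known, so its share beside that of all probe sets is a description only. Their median log2 difference was -2.31, beside 0.036 over all tested probe sets. The order from the largest fall was Basp1, Dbn1, Marcksl1, Marcks, Stmn1, Gap43 and Stmn2, taking the probe set of a gene with the larger fall. The place of Dbn1, near background at P30, depends on the pseudocount: its log2 difference was -4.57 at a pseudocount of 1, beyond that of Basp1 (-4.15), and -3.0 at 16, short of that of Marcksl1 (-3.37). Less RNA per cell and fewer cells of a type cannot be told apart in such bulk samples. In all, 6 of these probe sets, from Basp1 (both), Dbn1, Marcksl1, Marcks and Stmn1, fell at least 4-fold. Of all tested probe sets, 1.99% were called and at least 4-fold lower. Gap43 lay just under 4-fold, at 3.99-fold. None was called higher (19.4% of all were). The plot of signals by stage and genotype shows all arrays.

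**Figure D1:**
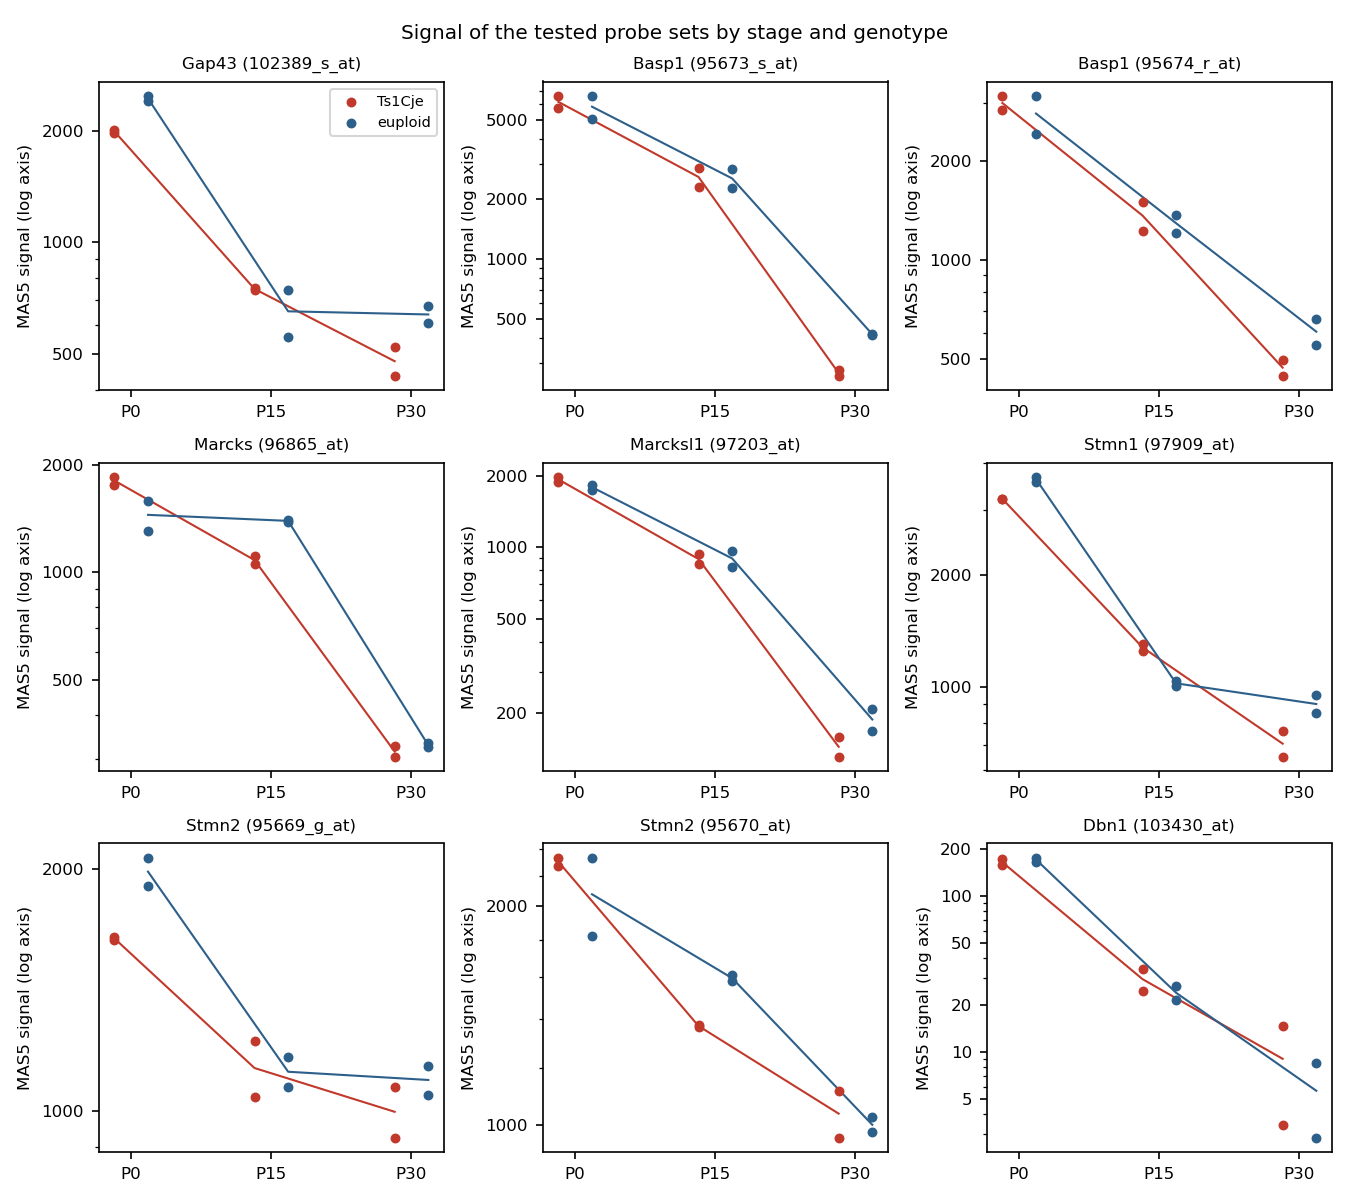
MAS5 signal (log axis, arbitrary units) of the 9 tested probe sets at P0, P15 and P30. Each point is 1 array, 2 per pool, Ts1Cje in red to the left and euploid in blue to the right, and lines join the pool means. Gap43, Stmn1 and Dbn1 drop steeply by P15, while Marcks in euploid pools is about as bright at P15 (1405.4 and 1383.1) as at P0 (1588.7 and 1308.6).

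Gap43 encodes a widely used marker of growth cones. Its signal in the Ts1Cje pools was 2011.5 and 1978.1 at P0, 744.1 and 753.1 at P15, and 434.6 and 520.5 at P30. In the euploid pools it was 2492.1 and 2401.9 at P0, 745.9 and 556.7 at P15, and 604.2 and 673.2 at P30. All P0 arrays lay above all later ones, and P15 and P30 arrays overlapped in the euploid pools only. Gap43 fell 3.17-fold by P15 (log2 difference -1.66 ± 0.17 SE, n = 2 pools per stage, limma adjusted p = 0.000265). The later step was -0.33 ± 0.17 (95% interval -0.72 to 0.06, adjusted p = 0.295). At P30 the Ts1Cje pool kept 23.9% of its P0 signal and the euploid pool 26.1%. Gap43 lies on chromosome 16, proximal to Sod1 (gene order of GRCm38.p6), so outside the trisomic segment, which starts near Sod1.

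Basp1 encodes a myristoylated relative of GAP-43 in function, also known as CAP-23. Its brighter probe set (95673_s_at) gave 5704.0 and 6580.9 at P0, 2302.6 and 2856.3 at P15, and 277.5 and 257.6 at P30 in the Ts1Cje pools. The euploid pools had 5012.1 and 6607.7 at P0, 2259.7 and 2812.0 at P15, and 421.2 and 416.5 at P30. The stages did not overlap in either genotype. It fell 2.33-fold by P15 (-1.22 ± 0.18, adjusted p = 0.0016 by limma) and a further 7.51-fold by P30 (-2.91 ± 0.18, adjusted p = 0.000203). At P30 the Ts1Cje pool kept 4.36% of its P0 signal and the euploid pool 7.21%. The other probe set (95674_r_at) fell by about the same factor in the earlier step (2.17-fold, -1.12 ± 0.15) but by only 2.48-fold in the later one (-1.31 ± 0.15, adjusted p = 0.0038). It retained 15.6% of its P0 signal in Ts1Cje and 21.6% in euploid cerebellum at P30. Both probe sets thus fell at each step, and they disagree on the size of the later fall. By Affymetrix naming, probes of an s_at set can match several transcripts, and an r_at set was chosen under relaxed design rules.

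Marcks encodes the main myristoylated substrate of protein kinase C in brain. In the Ts1Cje pools it gave 1854.4 and 1759.3 at P0, 1108.6 and 1056.7 at P15, and 304.1 and 327.1 at P30. In the euploid pools the values were 1588.7 and 1308.6 at P0, 1405.4 and 1383.1 at P15, and 325.0 and 332.9 at P30. Its P0 and P15 arrays overlapped in the euploid pools and were apart in the Ts1Cje pools. The earlier step over both genotypes was -0.39 ± 0.17 (95% interval -0.79 to 0.00, limma adjusted p = 0.127), with -0.74 in Ts1Cje and -0.048 in euploid pools. The later step was a fall of 3.77-fold (-1.92 ± 0.17, adjusted p = 0.00151). The earlier step was -0.66 without the euploid P0 pool and -0.64 without the euploid P15 pool. It was -0.12 without the Ts1Cje P0 pool and -0.14 without the Ts1Cje P15 pool. On 12 arrays with the pool as a random block it was called (-0.39, limma adjusted p = 0.0246).

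Marcksl1 encodes a smaller MARCKS-like protein that is also made by macrophages. It gave 1873.9 and 1981.9 at P0, 846.0 and 936.9 at P15, and 130.7 and 158.9 at P30 in the Ts1Cje pools. The euploid pools gave 1829.2 and 1746.9 at P0, 826.3 and 967.1 at P15, and 168.2 and 209.1 at P30. Every stage was separate from the next in both genotypes. It fell 2.07-fold by P15 (-1.05 ± 0.15, limma adjusted p = 0.00153) and 5.3-fold from there to P30 (-2.41 ± 0.15, adjusted p = 0.000219). The share of P0 signal left at P30 was 7.51% in Ts1Cje and 10.6% in euploid cerebellum. Summed signal of 6 microglia markers, all on the array, was 272.2 to 280.1 at P0, 405.9 to 408.3 at P15 and 355.3 to 391.2 at P30 in Ts1Cje pools, and 361.1 to 378.7, 292.9 to 313.3 and 350.7 to 391.6 in euploid pools. The part of microglia in the Marcksl1 signal was not tested.

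Stmn1 encodes stathmin, which is found in dividing cells as well as in young neurons. Its bright probe set (97909_at) gave 3207.5 and 3205.5 at P0, 1249.8 and 1308.4 at P15, and 647.7 and 762.3 at P30 in the Ts1Cje pools. In the euploid pools it gave 3680.2 and 3564.1 at P0, 1007.1 and 1041.8 at P15, and 950.0 and 852.0 at P30. The stages were separate in both genotypes, with P15 and P30 close together in the euploid pools. It fell 2.97-fold by P15 (-1.57 ± 0.17, limma adjusted p = 0.000337), and the later step was -0.52 ± 0.17 (adjusted p = 0.122). That later step was -0.81 without the euploid P15 pool and -0.74 without the euploid P30 pool. It was -0.23 without the Ts1Cje P15 pool and -0.31 without the Ts1Cje P30 pool. On 12 arrays with the pool as a random block it became a call (limma adjusted p = 0.0126). Mki67, a marker of dividing cells, had mean signals of 60.5 at P0, 27.9 at P15 and 0.9 at P30 in Ts1Cje pools, and 43.2, 16.5 and 0.5 in euploid pools. Mki67 was the only 1 of 5 genes on the array, from a list of granule progenitor and division markers, to pass the filter. Their summed signal by stage was 111.7 to 125.7, 53.5 to 72.7 and 27.7 to 35.7 in Ts1Cje pools. In euploid pools it was 97.0 to 109.6, 34.3 to 53.6 and 34.1 to 39.7. Gli1 of that list was higher at P30 than at P0, with 23.9 against 15.4 in Ts1Cje and 30.5 against 17.5 in euploid pools. The part of dividing cells in the fall of Stmn1 was not tested.

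Stmn2 encodes SCG10, a stathmin anchored to membranes of growing neurites, and it kept the most signal. The probe set 95669_g_at gave 1646.5 and 1629.2 at P0, 1039.6 and 1219.7 at P15, and 1070.1 and 923.8 at P30 in the Ts1Cje pools. The euploid pools gave 1902.0 and 2064.7 at P0, 1070.3 and 1165.6 at P15, and 1136.2 and 1046.8 at P30. P15 and P30 overlapped in both genotypes. This probe set fell 1.6-fold by P15 (-0.68 ± 0.13, limma adjusted p = 0.00534) and had a later step of -0.11 ± 0.13 (95% interval -0.40 to 0.19, adjusted p = 0.657). The probe set 95670_at gave 2334.5 and 2273.8 at P0, 1365.3 and 1373.6 at P15, and 958.8 and 1115.4 at P30 in Ts1Cje pools. Its euploid values were 2331.6 and 1823.5 at P0, 1576.9 and 1608.3 at P15, and 1024.6 and 978.0 at P30. It took nearly equal steps on the log2 scale, of -0.56 ± 0.14 (adjusted p = 0.0159) and -0.54 ± 0.14 (adjusted p = 0.0666). At P30 it kept 45.0% of its P0 signal in the Ts1Cje pool and 48.2% in the euploid pool.

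The call of 95670_at for the earlier step was the least firm. It ended under quantile normalization (-0.38, limma adjusted p = 0.0589), without letting the variance prior follow mean signal (-0.56, adjusted p = 0.0516), without the first euploid P0 array (-0.47, adjusted p = 0.0698), without the Ts1Cje P0 pool (-0.44, adjusted p = 0.126) and without the Ts1Cje P15 pool (-0.40, adjusted p = 0.0859). Its later step became a call without the second euploid P0 array (-0.54, adjusted p = 0.0483) and without the second Ts1Cje P30 array (-0.59, adjusted p = 0.0349). It was -0.70 without the Ts1Cje P15 pool and -0.38 without the euploid P15 pool. It was also called on 12 arrays with the pool as a random block (adjusted p = 0.00492).

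Dbn1 encodes drebrin and had the largest early fall of the 9 probe sets. It gave 171.3 and 157.2 at P0, 34.0 and 24.6 at P15, and 3.4 and 14.7 at P30 in the Ts1Cje pools. The euploid pools gave 176.0 and 165.5 at P0, 26.4 and 21.5 at P15, and 2.8 and 8.5 at P30. The stages did not overlap, and at P30 all 4 arrays were near background, where paired arrays of the Ts1Cje pool differed by 1.27 on the log2 scale. Dbn1 fell 5.56-fold by P15 (-2.48 ± 0.21, limma adjusted p = 0.00011) and 2.79-fold from there to P30 (-1.48 ± 0.21, adjusted p = 0.00913). The later fall depends on the pseudocount, with -1.95 at a pseudocount of 1 and -0.89 at 16. Without the first Ts1Cje P30 array it was -1.16 (adjusted p = 0.0591).

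The steps were then set side by side. In the earlier step, 8 of 9 tested probe sets were called lower, all but that of Marcks, where 14.4% of all tested probe sets were called lower. In the later step 5 of 9 were called lower, beside 3.13% of all: both probe sets of Basp1 and those of Marcks, Marcksl1 and Dbn1. No member was called higher in either step (13.6% and 1.61% of all were). Median log2 differences of the 9 were -1.12 in the earlier step and -1.31 in the later one, beside -0.033 and 0.057 over all. At each step all 9 values were negative.

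**Figure D2:**
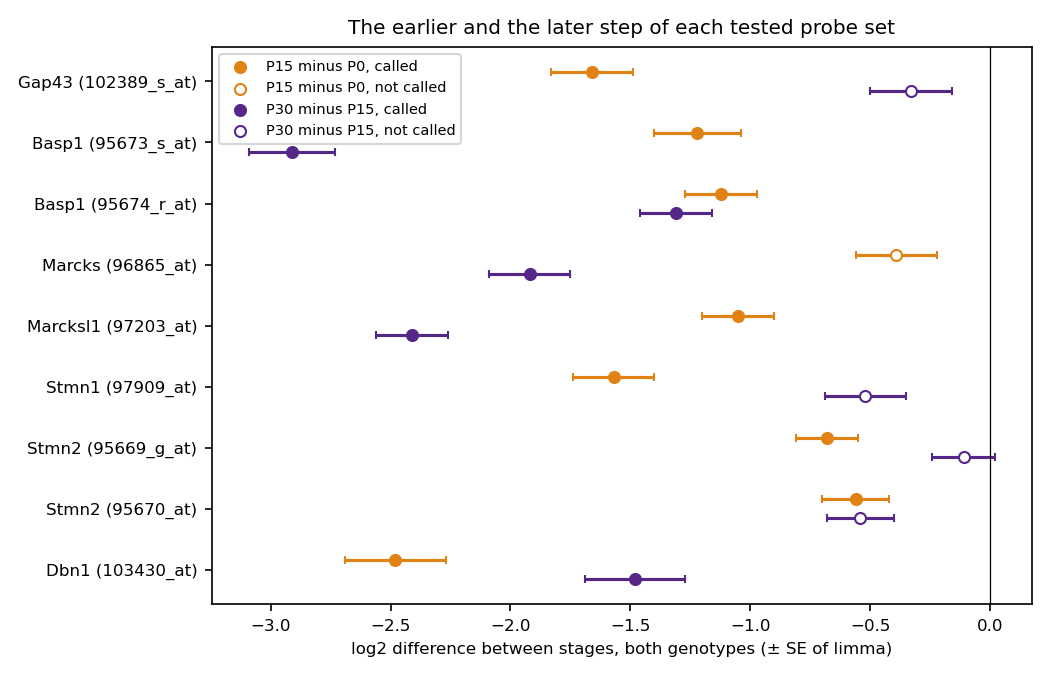
Log2 difference between stages over both genotypes for the 9 tested probe sets, P15 minus P0 in orange and P30 minus P15 in purple, with bars of 1 SE from limma. Filled points passed an adjusted p of 0.05. Gap43 and Stmn1 lie further left in the earlier step, and Marcks, Marcksl1 and Basp1 (95673_s_at) in the later one.

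The earlier and the later step of each probe set were also compared, and no test set members against each other. The difference between the steps, a contrast chosen after the values had been seen, was the log2 change from P15 to P30 minus that from P0 to P15. It was called for 4 of 9 probe sets, 1 above and 3 below 0, where 7.38% of all were called (2.71% above and 4.67% below 0). Gap43 had its larger fall early (1.33 ± 0.29, limma adjusted p = 0.0328). Basp1 (95673_s_at, -1.69 ± 0.31, adjusted p = 0.0177), Marcks (-1.52 ± 0.30, adjusted p = 0.0217) and Marcksl1 (-1.35 ± 0.27, adjusted p = 0.0224) had theirs late. Stmn1 lay on the side of Gap43 without a call (1.05 ± 0.29, adjusted p = 0.0665), as did Dbn1 (0.99 ± 0.36, adjusted p = 0.137). The second Basp1 probe set had -0.19 ± 0.26 (adjusted p = 0.707). Stmn2 had 0.58 ± 0.22 (adjusted p = 0.161) and 0.025 ± 0.23 (adjusted p = 0.965).

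These calls lie close to the threshold. With a variance prior that did not follow mean signal all 4 ended, with adjusted p of 0.0739 for Gap43, 0.0533 for Basp1, 0.0569 for Marcks and 0.0577 for Marcksl1. The call of Gap43 also ended without a filter on dim probe sets (adjusted p = 0.0602), without the euploid P0 pool (1.23, adjusted p = 0.0732) and without the euploid P15 pool (0.76, adjusted p = 0.221). Marcks lost its call without the euploid P15 pool (-1.03, adjusted p = 0.132). Marcksl1 lost it without the euploid P0 pool (-1.21, adjusted p = 0.0514) and without the Ts1Cje P15 pool (-1.23, adjusted p = 0.0508). Stmn1 had 1.63 without the Ts1Cje P15 pool and 1.26 without the Ts1Cje P30 pool, and its lowest value in any setting was 0.46. It gained a call on 12 arrays with the pool as a random block (adjusted p = 0.00375). Dbn1 gained one at a pseudocount of 16 (1.22, adjusted p = 0.0291), and Stmn2 (95669_g_at) on 12 arrays (adjusted p = 0.0337).

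Signals of other cell types moved strongly over the same stages. Over oligodendrocyte markers (5 of 6 on the array, none at 0 on all arrays) the summed signal was 93.9 to 110.2 at P0, 5190 to 5490 at P15 and 4148 to 4217 at P30 in Ts1Cje pools, and 103.7 to 147.4, 5019 to 5339 and 4311 to 4620 in euploid pools. Purkinje cell markers (5 of 6 on the array) summed to 739.3 to 843.0, 5778 to 6272 and 7691 to 8038 in Ts1Cje pools at the 3 stages, and to 582.3 to 614.5, 7676 to 7678 and 7431 to 7717 in euploid pools. Granule cell markers (5 of 6) summed to 2555 to 2940, 7252 to 8304 and 9233 to 9911 in Ts1Cje pools, and to 2895 to 3024, 8237 to 10050 and 7628 to 8118 in euploid pools. These 3 lists were brighter at P15 than at P0 in both genotypes. Markers of other brain regions (3 of 7 on the array) were dimmer, with sums of 84.9 to 112.6, 47.5 to 55.7 and 29.3 to 32.9 in Ts1Cje pools and 315.9 to 339.9, 25.8 to 38.5 and 47.0 to 51.1 in euploid pools. How far a changing mix of cells contributed to the falls was not tested.

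Likeness was measured as the root mean square distance, in log2 units over the 6 pools, between the values of a gene and those of a member, each centred on its own mean. Closest to Gap43 was another member, Stmn1, at 0.0922. Of 5663 genes that are no member, the nearest to Gap43 were the Notch ligand Dll1 (0.105), the proteoglycan Agrn (0.115), the huntingtin-associated Hap1 (0.136), the kinase Cdkl2 (0.147) and Reep1, which shapes the endoplasmic reticulum (0.16). Stmn1 had Agrn (0.096), Cdkl2 (0.113), Trp53bp1 (0.114), Dll1 (0.117) and the ribosomal Rps19 (0.117) nearest. The nearest to Marcks were the growth factor Ptn (0.112), Nt5dc2 (0.132), the cyclophilin Ppic (0.183), and Socs2 and Prc1 (0.222 each), and among members Marcksl1 (0.495). Dbn1 had larger distances, the nearest being the synaptotagmin Syt5 (0.303), Cd24a (0.31), Tspan6 (0.316), Fxyd7 (0.338) and Jpt1 (0.377). Distances from Gap43 to Marcksl1 (0.881) and to Basp1 (95673_s_at, 1.13) were far larger than that to Stmn1. The other Basp1 probe set, whose later fall was smaller (-1.31 against -2.91 on the log2 scale), was not compared. Values were centred but not scaled, so a distance reflects the size of falls as well as their timing.

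Other genes of the same machinery were followed from 4 lists, each gene by its brightest probe set. The first list holds genes of protein kinase C, of which GAP-43 and the MARCKS proteins are substrates, and of calmodulin. Of its 7 tested genes (protein kinase C and calmodulin), 3 were called higher at P15 and 0 lower, beside 13.6% and 14.4% of all probe sets, with a median of 0.34. Prkcd, with mean signals of 108, 302 and 386 at the 3 stages, rose by 1.44 ± 0.15 by P15 (limma adjusted p = 0.000288). Prkce rose by 0.64 ± 0.20 (adjusted p = 0.0396) and Prkcb by 0.43 ± 0.13 (adjusted p = 0.042). In the later step this list had 0 calls.

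Of 8 tested relatives and kinases of stathmin, 1 was called higher and 2 were called lower at P15 (median -0.17), near the 13.6% and 14.4% of all probe sets. Stmn4, a neural stathmin, fell by 0.66 ± 0.14 on the log2 scale (limma adjusted p = 0.0082), with mean signals of 708, 446 and 420 at P0, P15 and P30. Cdk1, the mitotic kinase that phosphorylates stathmin, fell by 0.92 ± 0.24 by P15 (adjusted p = 0.0241) and had a further step of -1.57 ± 0.24 to P30 (adjusted p = 0.0139). Camk4, a calmodulin-dependent kinase of granule cells, rose by 1.40 ± 0.23 (adjusted p = 0.00252).

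Among genes of actin turnover, 1 of 13 tested was called higher and 5 were called lower at P15 (median -0.26), where 13.6% and 14.4% of all probe sets were. The falls named were Pfn1 (-0.99 ± 0.23, limma adjusted p = 0.0147), Cfl2, a cofilin (-0.96 ± 0.16, adjusted p = 0.00263), and Pfn2, the neuronal profilin (-0.74 ± 0.14, adjusted p = 0.00457). Pfn1, a profilin, was dim and rose by 1.59 ± 0.23 from P15 to P30 (adjusted p = 0.0111), with mean signals of 29.7, 13.1 and 49.0 at P0, P15 and P30. Gsn, the actin-severing gelsolin, rose by 4.45 ± 0.21 (adjusted p = 3.6e-06), with mean signals of 20.0, 533 and 306.

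Actin bundlers and membrane linkers of the growth cone had 5 of 13 tested genes called lower and 0 called higher at P15 (median -0.28), where 14.4% and 13.6% of all probe sets were. At P30 against P0, 6 were called lower and 0 called higher, where 19.6% and 19.4% of all were. Dpysl3, a collapsin response mediator protein, fell by 2.37 ± 0.39 (limma adjusted p = 0.00263) and had mean signals of 374, 68 and 14.4 at the 3 stages. Evl and Enah, both of the Ena/VASP family that extends actin filaments, fell by 1.07 ± 0.17 (adjusted p = 0.00242) and 0.86 ± 0.17 (adjusted p = 0.00586).

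The plot of the related lists shows every tested gene of these lists.

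**Figure D3:**
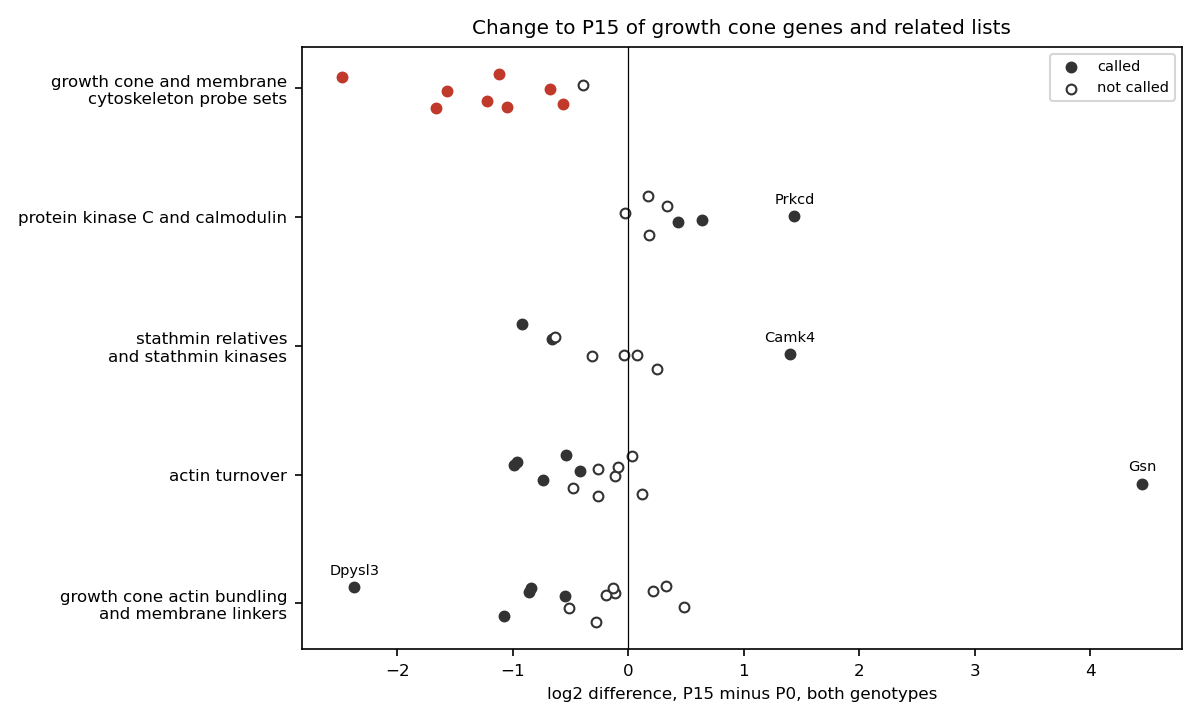
Log2 difference P15 minus P0 over both genotypes for the 9 tested member probe sets (top row) and for the tested genes of 4 related lists. Filled points passed an adjusted p of 0.05 (red for members, black for the other lists), open points did not, and vertical position within a row has no meaning. Members lie at or left of -0.39, and 3 called genes of protein kinase C lie right of 0.

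The other question of the design was whether Ts1Cje cerebellum differed from euploid cerebellum. Over the 3 stages limma called 0 of 9 member probe sets, as it called 0.0% of all 7453, and 0 of 9 had an unadjusted p under 0.05 (2.91% of all). Differences ranged from -0.17 ± 0.15 for Basp1 (95673_s_at) to 0.17 ± 0.17 for Dbn1, Ts1Cje minus euploid on the log2 scale. The 95% intervals were -0.51 to 0.16 and -0.22 to 0.56, so moderate differences in either direction were not detectable with 3 pools of each genotype. Gap43 had -0.17 ± 0.14 (adjusted p = 1), Marcks -0.033 ± 0.14, Marcksl1 -0.089 ± 0.13 and Stmn1 -0.07 ± 0.14. A steady change of the genotype difference with age was called for 0 of 9 too, with 0.0% of all called and 2.59% of all at an unadjusted p under 0.05 (0 of 9). Basp1 (95673_s_at) had the largest such value, -0.73 ± 0.33 over the 30 days (adjusted p = 1 by limma). None of these 4 lists of related genes held a called gene for genotype.

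Within a stage 1 pool stands against 1 pool, so there is no test, and values are given. At P30, 5 of 9 probe sets were lower in the Ts1Cje pool on both arrays than on either euploid array, and 0 were higher, where 19.8% and 19.6% of all tested probe sets were. They were both of Basp1 (-0.64 and -0.36) and those of Gap43 (-0.42), Marcksl1 (-0.37) and Stmn1 (-0.35). Over the 9, the medians at the 3 stages were 0.09, 0.025 and -0.35, beside 0.017, 0.0057 and -0.00093 over all. The Ts1Cje P30 pool also had the highest actin 3′ to 5′ ratio, while the GAPDH ratios of the P30 pools overlapped. Granule cell markers were higher in it (9233 to 9911 in summed signal, against 7628 to 8118 in the euploid P30 pool). Fabp7, a marker of Bergmann glia and young astrocytes named here after its values were seen, had mean signals of 289 in the Ts1Cje and 623 in the euploid P30 pool. Its list of astrocyte and Bergmann glia markers (5 of 6 on the array) overlapped in summed signal, 7931 to 8664 against 8097 to 8709. Gfap (170 against 219) and Aqp4 (1010 against 1280) were also lower in mean signal, and Aldoc (3660 against 3280) and Apoe (3170 against 3010) were higher. The part of each in these differences was not tested. Marcks (-0.06), Stmn2 (-0.13 and 0.047) and Dbn1 (0.34) overlapped between the genotypes at P30.

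At P0, 3 of 9 probe sets were lower without overlap and 2 higher, where 21.9% and 22.4% of all were. Gap43 (-0.29), Stmn2 (95669_g_at, -0.27) and Stmn1 (-0.18) were lower in the Ts1Cje pool, and Marcks (0.32) and Marcksl1 (0.11) higher. The euploid P0 pool was the one with high Hoxa5, and the GAPDH ratio was higher in the Ts1Cje P0 pool. What either contributed was not tested. At P15, Stmn1 (0.32) was higher in the Ts1Cje pool and Marcks (-0.36) and Stmn2 (95670_at, -0.22) were lower, where 21.0% of all were higher and 18.5% lower. Purkinje cell markers were also lower in that pool (5778 to 6272 against 7676 to 7678 in summed signal), and it was the pool with Xist signal; the part of either was not tested.

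**Figure D4:**
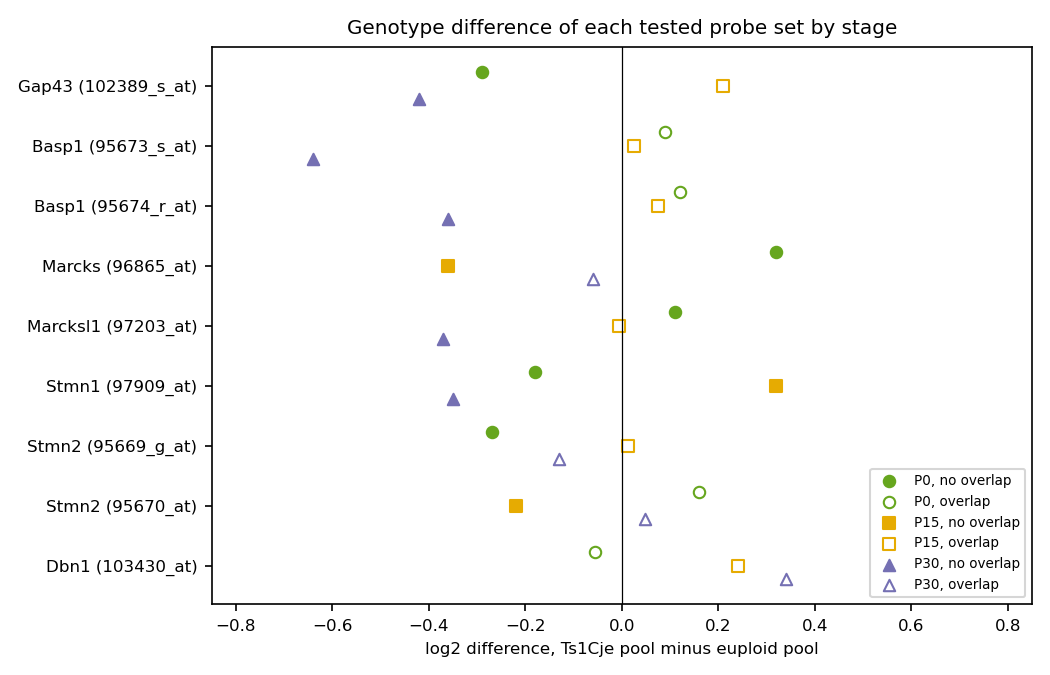
Log2 difference between the Ts1Cje and the euploid pool at each stage for the 9 tested probe sets. Filled symbols have no overlap between the 2 arrays of 1 genotype and those of the other, and each difference sets 1 pool against 1 pool. At P30 the 5 filled symbols lie between -0.64 and -0.35.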

How the data were processed

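RNA pools of Ts1Cje and euploid cerebella at 3 stages were measured on 12 Affymetrix arrays, 2 per pool. The labels' protocols state that each frozen cerebellum was extracted by itself, its RNA checked on a Bioanalyzer, and the RNAs then pooled. The deposited values are linear MAS5 intensities (per the submitters' processing notes). The sources used here do not give the MAS5 version or settings. In the files, the mean of each array trimmed by 2% at each end was 100.05 to 100.06, so no scaling was added. Signals were turned into log2(signal + 4.6), 4.6 being the 20th percentile of all values, which understates changes of dim probe sets. Left out were 66 controls and probe sets with a mean signal under 20.12 (40th percentile), and 7453 remained. By the platform annotation 10855 probe sets had 1 symbol, 396 several and 1237 none, and 10839 matched RefSeq by gene ID. None of the members' probe sets carried several symbols (0).

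The unit of the fit was the pool, as the mean of its 2 arrays, with 1 pool per genotype and stage. The residual spread is therefore the departure of the pools from the fitted model. P-values do not measure the spread between animals, or between pools of the same genotype and stage. Limma 3.58.1 (R 4.3.3, lmFit and eBayes with trend) fitted genotype plus stage (2 residual degrees of freedom, prior 6.39). A second model added genotype times day (1 residual degree of freedom, prior 9.51). Tests were two-sided. Adjusted p-values are Benjamini-Hochberg values across the 7453 probe sets, called under 0.05. Errors are limma's SE. The code was tested on simulated data. Figures were drawn with matplotlib 3.10.9 (Python 3.11.15). The members and lists were chosen with earlier results of these data known. Named genes were all members, the 3 largest called rises and falls by P15 in each related list (1 list is not reported here), and the 5 nearest genes in likeness to Gap43, Dbn1, Stmn1 and Marcks. Alternatives were other pseudocounts, filters, quantile normalization, no trend, 12 arrays with the pool as a random block, the hybridisation number as a block, and leaving out each array and each pool.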

Additional observations from a re-analysis of the deposited data

Results flagged for a closer look

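In 3 of the 9 tested probe sets, the genotype difference ran in opposite directions at 2 stages. Both arrays of a pool lay on the same side each time. Marcks was higher in the Ts1Cje pool at P0 (0.32) and lower at P15 (-0.36), a change of -0.69 on the log2 scale. Marcksl1 was higher at P0 (0.11) and lower at P30 (-0.37), a change of -0.48. Stmn1 was lower at P0 (-0.18), higher at P15 (0.32) and lower again at P30 (-0.35), with changes of 0.49 from P0 to P15 and -0.67 from P15 to P30. These differences between stages were not tested, since each stage has 1 pool per genotype. Such opposite pairs were found for 24.2% of all 7453 tested probe sets, so they are not particular to these genes. The shares were 15.2% between P0 and P15, 6.91% between P0 and P30 and 9.5% between P15 and P30.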

How the results depend on the processing

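Direction was kept by all 9 probe sets in P15 against P0 and in P30 against P0 under all 26 alternatives, and in P30 against P15 in all but 1 case, Stmn2 (95669_g_at) without the Ts1Cje P15 pool (0.0011, not called). All 9 stayed called for P30 against P0, and 7 to 9 were called for P15 against P0 and 4 to 7 for P30 against P15. No alternative called a member for genotype or for genotype by day. Quantile normalization moved the median of all probe sets by less than 0.1, and some members by more. In P15 against P0 it made all 9 falls smaller. Basp1 (95673_s_at) went from -1.22 to -0.94 and Stmn2 (95670_at) from -0.56 to -0.38. The labels give no meaning to a shared hybridisation number, and the data do not settle one: over 15 pairs of pools the correlation of the differences between first and second arrays was -0.124 to 0.354, and 7 exceeded 0.1, so pools were not treated as paired. With that number as a replicate block on 12 arrays, calls over all probe sets were 898 for P30 against P15 (353 as reported), 1229 for the difference between steps (550), 6 for genotype (0) and 0 for genotype by day (0). On 12 arrays without the block these counts were 1016, 1334, 14 and 4. Calls gained on 12 arrays stood with larger adjusted p (limma) under the block for Marcks in P15 against P0 (0.0332, against 0.0246 without it), Stmn1 (0.0205, against 0.0126) and Stmn2 (95670_at, 0.00924, against 0.00492) in P30 against P15, and Stmn1 in the difference between steps (0.00673, against 0.00375). The call of Stmn2 (95669_g_at) in the difference between steps, gained on 12 arrays (limma adjusted p = 0.0337), ended under the block. P30 against P15 had 199 calls without a filter and 183 without the trend, and the difference between steps had 0 member calls without the trend (4 as reported). Leaving out single arrays or pools gave 141 to 508 calls for P30 against P15, 1830 to 3293 for P30 against P0 (2904), 253 to 736 for the difference between steps with 2 to 5 members, 0 to 6 for genotype and 0 to 5 for genotype by day. Genotype by day could not be fitted without a pool, since no residual degree of freedom is left. Causes of these shifts were not tested. Signal near background limits Dbn1 at P30.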
